A study of Mus with 8 samples.

Results

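Wild type interscapular brown fat is described here from the 4 of 8 samples in the series whose titles name them wild type, with 1 array per sample. All 4 are labelled as brown adipose tissue of C57BL/6 mice, wild type and female, and they carry no other allele or agent in the labels. The tissue was dissected from between the shoulder blades, and total RNA was isolated on columns, biotinylated and hybridized without technical replicates. Age, diet and housing temperature of these mice are not stated in the labels used here. The other 4 samples, from mice without Hilpda, enter no value below. Nothing in the labels states whether the mice were littermates, so the spread given is that between these 4 arrays, and their number limits the precision.

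Brown fat is the heat-producing fat of mammals. Its cells hold many small lipid droplets and densely packed mitochondria, in whose inner membrane the uncoupling protein UCP1 lets protons return without making ATP. Cold is sensed in the brain, noradrenaline from sympathetic nerves activates beta-adrenergic receptors, and cyclic AMP then drives both lipolysis and the transcription of thermogenic genes. The fatty acids released are fuel and also activators of UCP1.

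The label female did not hold up against sex-linked genes on any of the 4 arrays. Eif2s3y, a Y-linked translation factor, read 9.54, 9.67, 10.40 and 11.01 on the log2 scale on arrays 1 to 4. Uty and Kdm5d, both Y-linked, lay at mean percentiles of 90.5 and 80.9 among all genes. Xist, the RNA that silences an X chromosome in female cells, read 3.60, 3.50, 4.10 and 4.09, at a mean percentile of 31.1. The mice are therefore called only wild type in what follows.

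The arrays differed in scale, so each gene is given by its position, the percentile of its value among 30713 genes on the same array, where 50 is the middle. The median deposited value was 3.95, 3.93, 4.97 and 4.92 on the log2 scale on arrays 1 to 4, and the highest value was 19.93, 19.93, 19.73 and 19.74. Olfactory receptor genes (1229), which serve in smell, gave a low-signal reference with 95th percentiles of 3.87, 3.79, 4.79 and 4.74. On arrays 1 to 4 this level lay at positions of 47.9, 46.4, 46.6 and 46.5. Positions below it rank signals in the low range and give no resolved order of expression. Of all genes, 14509 (47.2%) exceeded that level on all 4 arrays, among them 16 olfactory receptor genes. The values end at a ceiling: 102, 107, 46 and 47 genes lay within 0.1 of the highest value, and their order is not resolved. That bound does not mark where order becomes resolved. On arrays 1 and 2, Cidea, Car3 and Mt2 lay outside it, yet read the same on both (18.76, 19.76 and 19.73). Whether genes below the bound also reached a limit was not tested. Probe sets answer differently to the same amount of RNA, so a position ranks signal and not transcript number between genes. A position also depends on which genes are ranked. With only the 18360 genes above the olfactory receptor level on at least 1 array, the mean position of Hilpda moved from 59.7 to 32.6, and the median of the white adipocyte list from 53.6 to 30.7, of macrophages from 61.6 to 35.8 and of lymphocytes from 37.4 to 10.4, whereas that of Ucp1 was 99.7.

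**Figure D1:**
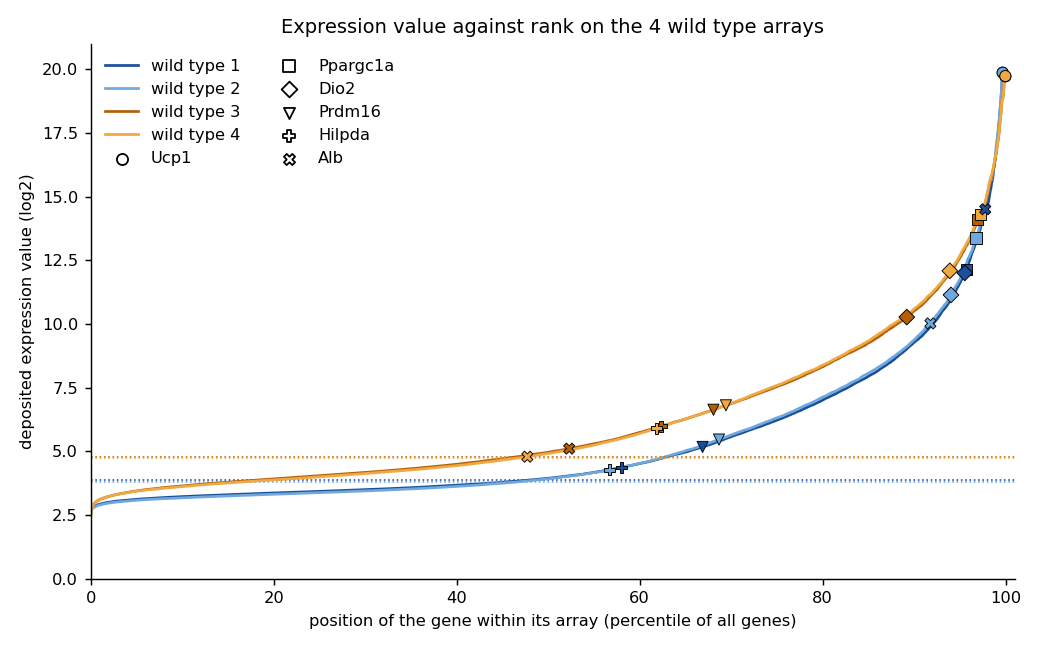
Deposited log2 value against position (percentile of all genes) on each of the 4 wild type arrays, with 6 genes marked and the 95th percentile of olfactory receptor genes on each array as dotted lines. Arrays 3 and 4 lie above arrays 1 and 2 over most of the range, whereas the positions of Ucp1, Ppargc1a and Prdm16 differ little and that of Alb falls from 97.8 to 47.7.

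The 5 genes taken as markers of brown adipocytes all lay in the top 1% of genes on every array. Ucp1, the uncoupling protein itself, read 19.87, 19.87, 19.73 and 19.74 on arrays 1 to 4 and was within 0.1 of the ceiling on all 4, so its place among the highest genes is not resolved; its mean position was 99.8 ± 0.169 (SD, n = 4). Cox7a1, a cytochrome c oxidase subunit of heart, muscle and brown fat, read 18.40, 18.64, 18.26 and 18.34. Elovl3, an elongase of very long fatty acids that cold induces in brown fat, read 17.75, 17.67, 17.55 and 17.56. The position was 99.4 ± 0.0400 for Cox7a1 and 99.2 ± 0.0520 for Elovl3 (SD, n = 4). Near the top of the scale a percentile has little room to move, so a small SD there does not show a constant level. Dgat2, which makes triglyceride from diacylglycerol, read 18.40, 18.12, 18.89 and 18.82, and its position was higher on arrays 3 and 4 (both 99.7) than on arrays 1 and 2 (99.4 and 99.3). Pnpla2, the adipose triglyceride lipase, read 18.40, 18.47, 18.94 and 18.96 and showed the same order, with 99.4 on arrays 1 and 2 and 99.7 on arrays 3 and 4. Dgat2 and Pnpla2 are in the list of general adipocyte genes used below and not in that of brown adipocyte identity. On each array, the tissue label and the levels of Ucp1, Cox7a1 and Elovl3 thus pointed the same way.

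Among genes of brown adipocyte identity, 27 of 30 had a probe set of their own here, and their median position was 95.9, with 95.7, 94.9, 96.4 and 96.1 on arrays 1 to 4. Of the 27 genes, 13 (48.1%) were in the top 5% on all 4 arrays, beside 4.43% of all genes (1361). Cidea, a lipid droplet protein, read 18.76, 18.76, 19.32 and 19.34. Fabp3, a fatty acid binding protein, and Cpt1b, which passes long-chain fatty acids to carnitine for entry into mitochondria, both had a position of 99.1. Cox8b, another cytochrome c oxidase subunit of heart, muscle and brown fat, followed at 98.4, and Slc27a2, an acyl-CoA synthetase, at 98.9. Kcnk3, a potassium channel, lay at 95.9 ± 0.420, and Otop1, a proton channel, at 96.6 ± 1.38 (SD, n = 4), lower on array 2 (94.9) than on array 3 (98.0).

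Several developmental regulators of the brown lineage had lower positions. Prdm16, which commits precursors to the brown fate, read 5.18, 5.47, 6.64 and 6.81, at 68.3 ± 1.08 (SD, n = 4), above the olfactory receptor level on all 4 arrays. Zic1 and Lhx8, transcription factors that mark interscapular brown fat, lay at 65.0 and 61.7. Bmp7, a secreted growth factor that promotes brown fat formation, was the lowest of the list at 13.1, below the olfactory receptor level on all 4 arrays, and Eva1a was next at 49.4.

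General adipocyte genes stood higher as a list than the identity genes on each of the 4 arrays. The median position of 21 measured members was 98.8, all 21 exceeded the olfactory receptor level on all 4 arrays, and 16 were in the top 5% on all 4. Scd1, a fatty acid desaturase, Car3, a carbonic anhydrase abundant in fat, Pck1, which supplies glycerol 3-phosphate for triglyceride, and Fabp4, the adipocyte fatty acid binding protein, had the 4 highest positions, from 99.7 to 99.8, and each came within 0.1 of the ceiling on at least 1 array. Adipoq, the adipocyte hormone adiponectin, read 13.92, 13.92, 15.65 and 15.58, at 97.8 ± 0.605 (SD, n = 4). Pparg, the master regulator of adipocytes, lay at 98.5 ± 0.0380, on the 4 arrays alike. Adig at 91.5 and Cebpb at 79.2 were the lowest members.

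Genes taken to mark white and beige adipocytes were spread over most of the range. For the white list, 15 genes had a median position of 53.6, which lay below that of the identity list by 36.6 to 40.9 points on the 4 arrays. Retn, the hormone resistin, and Rbp4, which carries retinol, were its high members at 96.7 and 95.1. Lep, the hormone leptin, read 3.20, 3.33, 6.26 and 5.26 and was at positions of 8.62, 20.5, 64.8 and 55.04. Its values on arrays 1 and 2 lay below the olfactory receptor level, and those on arrays 3 and 4 above it. Nnat, an imprinted gene, showed the same split, with 22.3 and 26.99 against 62.7 and 59.4.

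The homeobox gene Hoxc10, which marks posterior white depots, lay at 15.6, the lowest of the white list, and Tcf21, a factor of visceral fat, at 22.6. Of 9 beige markers, Slc36a2, a proton-coupled amino acid transporter also known from brown fat, was in the top 5% at 99.1, and Aldh1a1, which makes retinoic acid, lay at 86.8. Tmem26, Tbx1 and Tnfrsf9, surface and transcription markers of beige cells, lay at 42.96, 28.02 and 23.7. Both Tbx1 and Tnfrsf9 were below the olfactory receptor level on all 4 arrays, and Tbx1 ranged from 12.3 to 44.5.

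**Figure D2:**
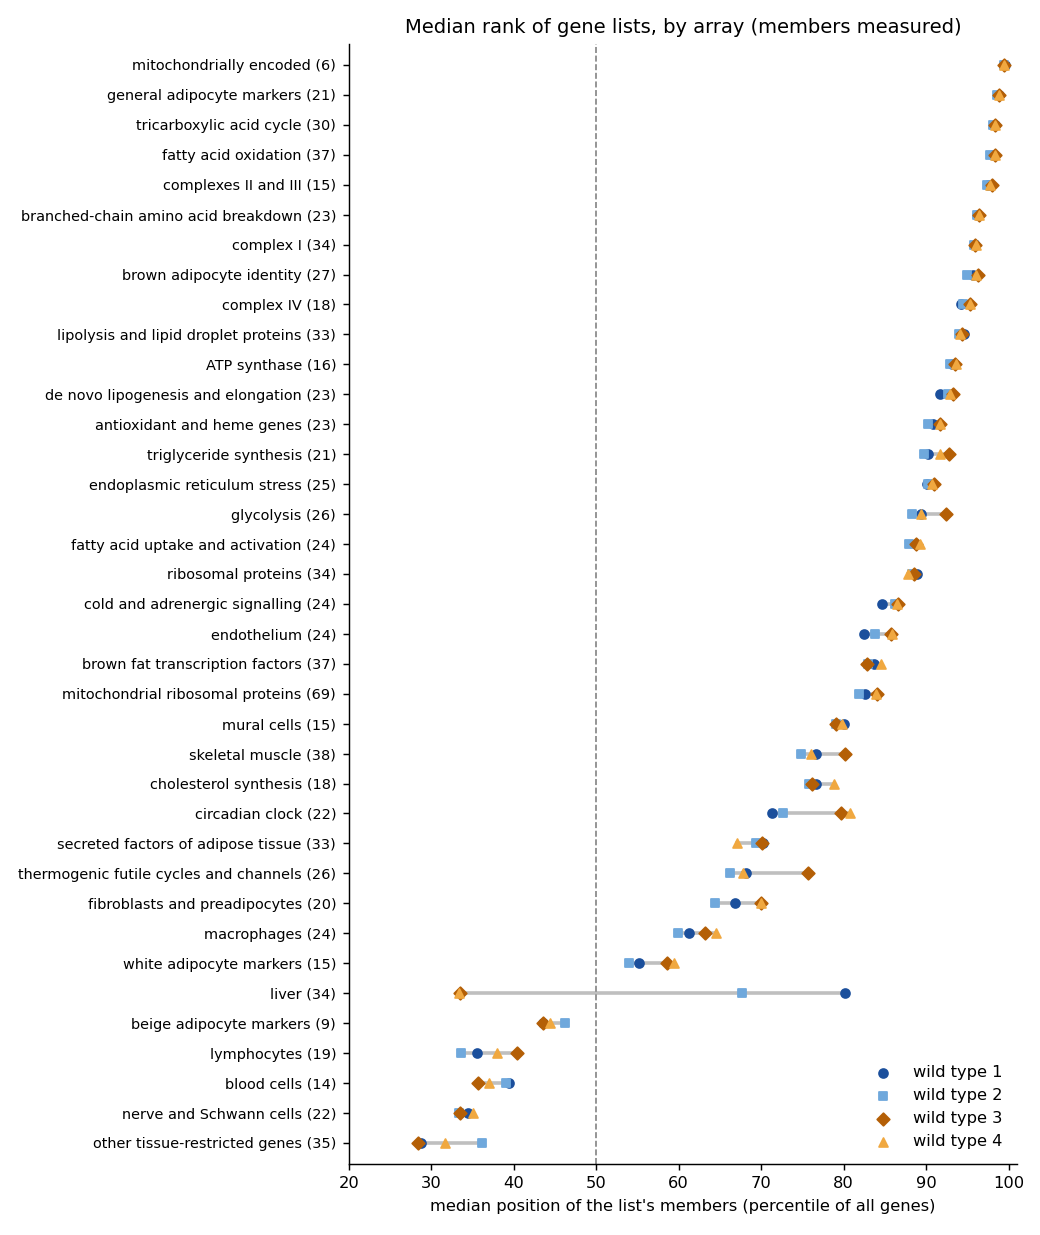
Median position of the measured members of each of the gene lists on each wild type array, ordered by the mean; the number after a name is how many members were measured, and the dashed line is the middle of all genes. Of the lists, 8 have a median above 95, led by the mitochondrially encoded genes and the general adipocyte genes, and the liver list is the one whose arrays lie farthest apart, from 80.2 on array 1 to 33.3 on array 4.

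Nuclear regulators of the brown adipocyte covered a wide range of positions. Of 40 listed genes 37 were measured, 35 of them exceeded the olfactory receptor level on all 4 arrays, and 5 were in the top 5% on all 4: Pparg, Ppargc1a, Ppara, Epas1 and Ebf1. Ppargc1a, the coactivator that links adrenergic signals to mitochondrial biogenesis, read 12.14, 13.38, 14.10 and 14.31 and lay at 96.7 ± 0.703 (SD, n = 4), lowest on array 1. Ppara, the nuclear receptor of fatty acid oxidation, lay at 96.6, Epas1, a hypoxia-inducible factor, at 96.0, and Ebf1, a factor that acts upstream of Pparg in adipocyte formation, at 95.9. Ebf2, which recruits Pparg to brown fat genes, read 9.39, 9.86, 11.24 and 11.91, at 91.9 ± 1.34, and its relative Ebf3 lay at 85.1. Ppargc1b, the related coactivator, lay at 92.6 and Esrrg, an orphan receptor of energy metabolism, at 80.6.

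The next group, between 90 and 96, held Cebpa at 95.2, Nfia, which opens chromatin at brown fat enhancers, at 94.4, the clock repressor Nr1d1 at 92.4, Gabpa, an activator of nuclear genes for mitochondria, at 92.1, and Hif1a at 91.9. Mlxipl, the carbohydrate response factor, and Thrb, a thyroid hormone receptor, lay at 91.4, Nr4a1 at 90.6 and Zbtb16 at 90.5. Irf4, which partners Ppargc1a in thermogenic transcription, followed at 88.6. Between 75 and 84 lay Tfam, the packaging factor of mitochondrial DNA, at 83.3, Stat5a at 82.0, Ehmt1, a histone methyltransferase that binds Prdm16, at 81.9, Klf15 at 81.4, Rxra, the partner of Pparg, at 80.3, Thra at 79.5, Cebpb at 79.2 and Klf11 at 75.8. Tbx15 at 69.0, Zfp516 at 68.4, Prdm16, Nrf1 at 66.6, Mecom at 65.1, Zic1, Lhx8 and Cebpd at 56.6 made up the lower part. Foxc2 at 15.7 and Esrrb at 13.6 were the only ones of the 37 that failed to exceed the olfactory receptor level on all 4 arrays.

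Some of these regulators differed in position between the arrays. The range over the 4 arrays was over 10 points for 6 of the 37 genes, beside 11934 of all 30713 genes. Both values of arrays 3 and 4 lay above both of arrays 1 and 2 for 18 of the 37, and the reverse held for 9, beside 10018 and 9406 of all genes. Irf4 read 11.10, 10.40, 8.25 and 10.10, with positions of 94.2, 92.6, 79.6 and 88.2, so array 3 stood below the rest. Zbtb16 went from 83.7 on array 1 to 94.6 on array 4, and Klf11 was lowest on array 2 at 70.1.

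**Figure D3:**
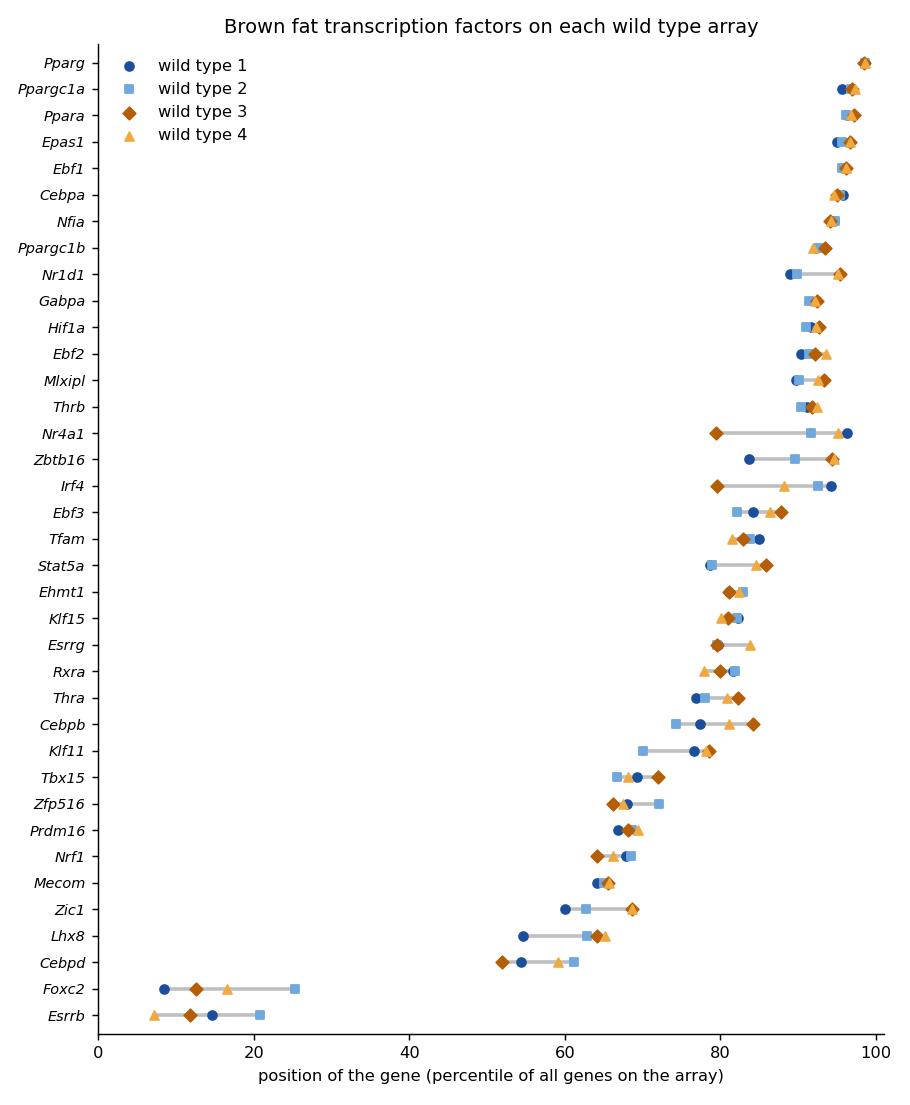
Position (percentile of all genes) of the 37 measured transcription factors and coregulators of brown fat on each of the 4 wild type arrays, with a grey line from the lowest to the highest array. Pparg lies at a mean of 98.5, and Irf4 and Nr4a1 lie at 79.6 and 79.4 on array 3 and at 94.2 and 96.2 on array 1.

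In the pathway from cold to lipolysis, 24 of 32 listed genes were measured, with a median position of 85.4. The beta-adrenergic receptor genes had no probe set of their own here and are not described. Prkar2b, the regulatory subunit of protein kinase A that prevails in fat, read 18.17, 18.16, 18.26 and 18.20, at 99.4 ± 0.0800 (SD, n = 4). Pde3b, the phosphodiesterase through which insulin lowers cyclic AMP, lay at 98.5, Prkaca, the catalytic subunit of protein kinase A, at 96.3, and Adcy3, an adenylyl cyclase, at 95.5; these 4 genes were in the top 5% on all 4 arrays. Other adenylyl cyclases lay lower, with Adcy6 at 91.4, Adcy4 at 69.0 and Adcy5 at 58.6.

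Receptors of hormones that can activate the same pathway differed in position. Tshr, the thyrotropin receptor, read 8.31, 8.63, 10.22 and 10.11, at 87.8. Mc5r, a melanocortin receptor, read 7.89, 9.28, 9.75 and 10.16, at 87.5, lowest on array 1. Adra1b, an alpha-adrenergic receptor, lay at 41.05, and Trhr, the receptor of thyrotropin-releasing hormone, and Adra2c were the lowest at 7.78 and 2.39. The subunit genes Gnas, of the stimulatory G protein, and Gnai2, of an inhibitory one, lay at 84.9 and 93.4.

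A list of heat-producing cycles and channels, which holds Ucp1 and genes of other routes, had 26 of 27 genes measured. The ADP/ATP carriers Slc25a5 and Slc25a4, which also leak protons, lay at 99.2 and 97.6, and Atp2a2, the calcium pump of the endoplasmic reticulum, lay at 96.9. For creatine cycling, the transporter Slc6a8 read 7.19, 7.19, 8.44 and 8.59, at 80.8 ± 0.334, and the kinase Ckb read 5.31, 5.16, 6.64 and 6.85, at 68.0 ± 1.40 (SD, n = 4). Alpl, a phosphatase that can hydrolyse phosphocreatine, lay at 72.4, and Gatm and Gamt, which make creatine, at 55.2 and 38.1. Sln, the peptide sarcolipin that uncouples the calcium pump of muscle, lay at 49.7. Ckmt1, a mitochondrial creatine kinase, at 32.3 and the cold-sensing channel Trpm8 at 17.7 were the lowest.

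The lipid droplet and its lipases were among the higher groups, with a median position of 94.5 for 33 of 34 genes and 14 in the top 5% on all 4 arrays. Cidec, which like Cidea joins droplets, lay at 99.4, and the coat protein Plin2 read 17.53, 16.96, 17.11 and 17.13, at 99.1 ± 0.104 (SD, n = 4). The other coat proteins ranked in the order Plin1 at 98.3, Plin4 at 97.6, Plin5, which tethers droplets to mitochondria, at 96.1 and Plin3 at 88.4. The lipases that act after Pnpla2 followed: Lipe, the hormone-sensitive lipase, read 14.74, 14.79, 15.87 and 15.82, at 98.2, and Mgll, the monoglyceride lipase, lay at 95.6.

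The regulators of Pnpla2 covered a wide range. Abhd5, its activator, lay at 94.5 ± 0.645, and G0s2, an inhibitor, at 93.6 ± 2.14 (SD, n = 4). G0s2 was lower on array 2 (90.6) than on the others (93.7 to 95.6). Hilpda, a small droplet protein that also inhibits Pnpla2 and is the gene the series deletes in its other samples, read 4.37, 4.28, 6.00 and 5.92. Its position was 58.0, 56.7, 62.4 and 61.8, at 59.7 ± 2.80 on average, above the olfactory receptor level on all 4 arrays. Both of arrays 3 and 4 lay above both of arrays 1 and 2, as for 10018 of all 30713 genes, and 9406 genes showed the reverse. Fitm1 at 59.1 and Hsd17b13, a liver droplet protein, at 44.4 were the lowest of the list; the second was at 60.8 and 57.6 on arrays 1 and 2 and at 34.3 and 24.98 on arrays 3 and 4.

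For triglyceride synthesis, 10 of 21 measured genes were in the top 5% on all 4 arrays, and the median position was 91.0. The glycerol 3-phosphate route supplied the top of the list: Pck1, Gpd1 at 99.6, Dgat2, and the glycerol channel Aqp7 at 98.8, with the first acyltransferase Gpam at 98.5, the second, Agpat2, at 98.4, and the phosphatase Lpin1 at 98.0. Dgat1, the other enzyme of the last step, lay at 96.04 ± 0.354 (SD, n = 4). The monoacylglycerol route, used in the intestine, lay lower, with Mogat1 at 62.2 and Mogat2 at 24.1, and the testis acyltransferase Gpat2 was the lowest at 20.9.

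Fatty acid uptake and activation had 24 of 27 genes measured and a median of 88.7. Cd36, a fatty acid translocase, read 18.87, 18.88, 19.45 and 19.46, and Lpl, the lipoprotein lipase, lay at 99.6. Gpihbp1, which carries Lpl across the capillary wall, lay at 94.8, and Angptl4, which inhibits Lpl, at 96.4. Among Fabp genes, Fabp4 and Fabp3 were at the top, Fabp5 lay at 61.3, and the liver and intestine forms Fabp1 and Fabp2 were at 54.8 and 21.1. Fabp1 differed between the arrays, with 80.9 and 67.9 on arrays 1 and 2 and 35.4 and 34.9 on arrays 3 and 4. Slc27a5, a liver acyl-CoA synthetase, at 24.8 and Fabp2 were the lowest.

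Fatty acid oxidation was almost wholly in the upper part of the rank order. The median position of 37 of 40 genes was 98.1, with 98.1, 97.7, 98.4 and 98.3 on arrays 1 to 4, and 25 (67.6%) were in the top 5% on all 4 arrays. Acaa2, the last thiolase of the mitochondrial cycle, read 19.64, 19.66, 19.09 and 19.10. Acadl, the long-chain acyl-CoA dehydrogenase, lay at 99.6, Hadhb and Hadha, the subunits of the trifunctional protein, at 99.6 and 99.3, and Acadm, the medium-chain dehydrogenase, at 99.5. Slc25a20, the carnitine carrier, lay at 99.4 and Cpt2, which returns fatty acids to coenzyme A inside mitochondria, at 98.7. The peroxisomal enzyme Ehhadh and transporter Abcd3 were also in the top 5%, at 99.1 and 98.3.

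The forms of the entry enzyme differed in position. Cpt1b, the form of muscle and brown fat, read 17.35, 17.32, 17.09 and 17.07, and lay at 99.1 ± 0.0240 (SD, n = 4). Cpt1a, the liver form, read 6.33, 6.26, 8.20 and 7.86, at 76.6 ± 1.98 (SD, n = 4). Cpt1c, the brain form, at 37.97 and the thioesterase Acot3 at 68.1 were the lowest of the list. Array 2 was the lowest of the 4 for 28 of the 37 oxidation genes, beside 7881 of all 30713 genes.

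Several enzymes of fatty acid synthesis were in the top 5% on all 4 arrays as well, 9 of 23 in all. Fasn, the fatty acid synthase, read 18.77, 19.04, 18.37 and 18.57 and lay at 99.5 ± 0.0210 (SD, n = 4). Thrsp, a regulator of lipogenesis, lay at 98.8, Elovl6 at 98.6, and Acaca and Acacb, the acetyl-CoA carboxylases, at 98.2 and 98.0. Acly, which makes acetyl-CoA in the cytosol, lay at 93.8 and Acss2, which makes it from acetate, at 85.1. Elovl4 and Elovl7 were the lowest at 34.8 and 20.3. The median of 23 genes, 92.7, lay below that of oxidation by 5.09 to 6.36 points on the 4 arrays.

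Cholesterol synthesis stood lower than fatty acid synthesis on every array, by 14.04 to 17.1 points. All of its 18 measured genes exceeded the olfactory receptor level on all 4 arrays, beside 47.2% of all genes. In the top 5% on all 4 was 1 of the 18 (5.56%), near the 4.43% of all genes. That gene, Hmgcs1, the cytosolic HMG-CoA synthase, lay at 98.3 ± 0.574 (SD, n = 4). Sc5d and Fdft1, later enzymes of the route, lay at 93.1 and 86.6. The kinase Mvk and decarboxylase Mvd, of the mevalonate steps, were the lowest at 58.2 and 61.1. Array 4 was the highest of the 4 for 12 of the 18 genes, beside 7622 of all genes.

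The tricarboxylic acid cycle with pyruvate dehydrogenase had a median position of 98.4 over 30 of 32 genes, and 22 (73.3%) were in the top 5% on all 4 arrays. Pdk4, the kinase that switches off pyruvate dehydrogenase when fat is burnt, was at the ceiling on all 4 arrays. Cs, citrate synthase, read 19.82, 19.82, 19.47 and 19.59. The subunits of isocitrate dehydrogenase, Idh3b, Idh3a and Idh3g, lay at 99.6, 99.3 and 99.1, and those of pyruvate dehydrogenase, Pdhb, Pdha1 and Dlat, at 99.3, 99.3 and 94.9. Of the pyruvate dehydrogenase kinases, Pdk2 lay at 97.8, Pdk1 at 82.9 and Pdk3 at 45.6. The testis subunit Pdha2 was the lowest at 5.84.

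Branched-chain amino acids are a fuel of active brown fat, and their breakdown had 23 of 23 genes measured, with a median of 96.3 and 13 in the top 5% on all 4 arrays. Aldh6a1 and Acat1, late steps of the valine and isoleucine routes, lay at 99.4 and 99.3. The subunits of the rate-setting dehydrogenase complex, Dbt, Bckdha and Bckdhb, lay at 98.0, 97.8 and 96.8, and its kinase Bckdk and phosphatase Ppm1k at 94.5 and 86.7. Slc25a44, the mitochondrial carrier of these amino acids, lay at 91.7. Of the first transaminases, the mitochondrial Bcat2 lay at 84.6 and the cytosolic Bcat1 at 43.3.

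Glycolysis had a lower median, 89.99 over 26 of 32 genes, below that of the tricarboxylic acid cycle by 6.02 to 9.81 points on the 4 arrays. The smallest gap was on array 3, where the glycolysis median was 92.4 against 88.3 to 89.4 on the others. This list shares Pgam2 and Eno3 with the skeletal muscle list described below, and the part of muscle in its median was not tested. Gapdh was within 0.1 of the ceiling on arrays 1 and 2 and read 19.01 and 19.06 on arrays 3 and 4. Pgk1 lay at 99.1, Ldhb, the lactate dehydrogenase form of oxidative tissues, at 98.4 and Ldha at 94.5. Hk2, the insulin-regulated hexokinase, lay at 95.4 and Hk1 at 62.6. Slc2a4, the insulin-regulated glucose transporter, lay at 93.9 and Slc2a1 at 75.0. Forms of testis, Ldhc and Gapdhs, were the lowest at 21.9 and 25.97.

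**Figure D4:**
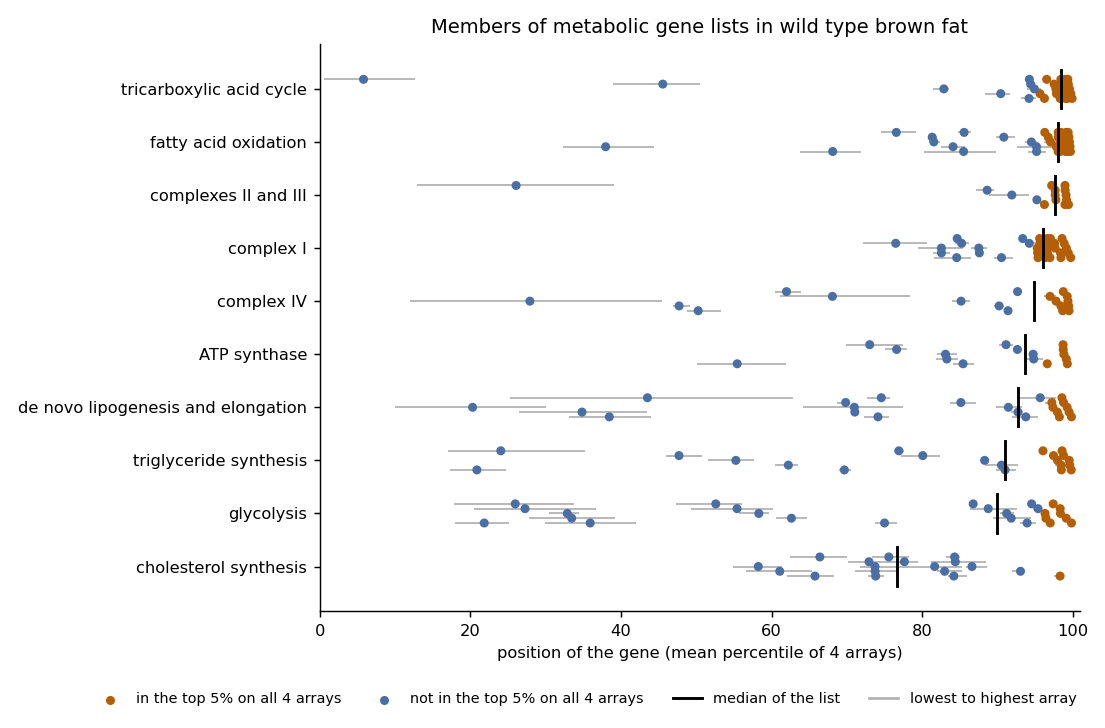
Mean position over the 4 wild type arrays (percentile of all genes) of each measured member of 10 metabolic gene lists, with a grey line from its lowest to its highest array and a black bar at the list median; orange points are in the top 5% on all 4 arrays. Oxidation, the tricarboxylic acid cycle and complexes II and III crowd above 95, and cholesterol synthesis centres on 76.6; the points far to the left include forms of other tissues such as Pdha2, Cyct and Cpt1c.

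The respiratory chain was high in each of its complexes, with the order of the list medians the same on all 4 arrays. Complexes II and III with cytochrome c came first at 97.7 (15 genes), then complex I at 96.1 (34 of 38), complex IV at 94.8 (18) and ATP synthase at 93.7 (16 of 18). In the top 5% on all 4 arrays were 11, 23, 9 and 6 of their genes. The order of complexes I and IV depended on which genes were ranked. With only genes above the olfactory receptor level on at least 1 array, complex IV stood at 94.9 and complex I at 93.45. In the complex I list, Ndufb9 read 19.60, 19.75, 19.47 and 19.59, and Ndufa10 lay at 99.1. Ndufa4, at 99.4, is in that list by its name, although its protein is now assigned to complex IV. All 34 genes of the list exceeded the olfactory receptor level on all 4 arrays. Ndufb2 at 76.5 and Ndufb7 at 82.6 were its lowest members. Cycs, cytochrome c, read 18.36, 18.57, 18.07 and 18.34, whereas the testis form Cyct lay at 26.1.

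Complex IV showed which tissue forms of its subunits had signal. Of the pairs with a heart and muscle form, Cox7a1 lay at 99.4 beside Cox7a2 at 98.7, and Cox8b at 98.4 beside Cox8a at 99.3, so both forms were in the top 5% on all 4 arrays. Cox6a1 lay at 99.4, and its heart and muscle form Cox6a2 at 68.1 with 61.2, 61.9, 78.4 and 70.9 on arrays 1 to 4. Cox4i1 lay at 91.4 and the lung form Cox4i2 at 62.0. The testis forms Cox7b2 and Cox8c were the lowest at 27.9 and 47.7.

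ATP synthase is known to be scarce in brown fat mitochondria of rodents, with low transcription of a c-subunit gene, Atp5g1, named as the limiting step. Here Atp5g1 read 5.57, 5.96, 7.90 and 7.23, at 73.0 ± 3.15 (SD, n = 4), with 69.9, 72.4, 77.4 and 72.4 on arrays 1 to 4. The other c-subunit genes, Atp5g2 and Atp5g3, lay at 98.7 and 91.1. The catalytic subunits Atp5a1 and Atp5b lay at 99.3 and 98.7, and Atp5l at 99.1. Atpif1, the inhibitor of the enzyme, was the lowest of the list at 55.4.

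Of the mitochondrial genome, 6 of 15 genes had a probe set of their own, and all 6 were in the top 5% on all 4 arrays. The ribosomal RNA mt-Rnr1 and the complex I subunit ND3 were at the ceiling on all 4 arrays. ND2 and ND6 lay at 99.5 and 99.4. COX1 read 16.16, 16.17, 18.52 and 18.53, and COX2 read 15.21, 15.21, 14.13 and 14.16, and their positions on the pairs of arrays differed in opposite directions: 98.7, 98.7, 99.5 and 99.5 for COX1, and 98.3, 98.04, 97.003 and 97.2 for COX2.

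Mitochondrial ribosomal proteins, which make the mitochondrially encoded subunits, were measured for 69 of 72 genes. All 69 exceeded the olfactory receptor level on all 4 arrays, beside 47.2% of all genes, and their median was 82.7. In the top 5% on all 4 arrays was 1 (1.45%), Mrpl42 at 98.3, beside 4.43% of all genes. Cytosolic ribosomal proteins had a probe set of their own for 34 of 79 genes, with a median of 87.8 and 10 in the top 5%, led by Rpl4 at 99.04 and Rpl41 at 98.5. Rps28 at 63.9 and Rps14 at 68.1 were the lowest of those 34.

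Protective and folding genes completed the inner cell. Cat, catalase, which removes the peroxide made in peroxisomes, was at the ceiling on all 4 arrays. Gpx3 and Gpx1, glutathione peroxidases, lay at 99.2 and 99.01, Fth1, the ferritin heavy chain, at 98.8 and Sod1 at 98.6, and all 23 measured genes of the antioxidant and heme list exceeded the olfactory receptor level on all 4 arrays. Among 25 genes of folding and stress in the endoplasmic reticulum, the chaperone Canx lay at 97.5, Derl1 and Dnajb9, of the degradation route, at 97.0 and 96.5, and Hsp90b1 at 96.7. The stress-induced genes Trib3 and Ppp1r15a were the lowest at 59.8 and 48.1.

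Secreted factors of fat covered nearly the whole range of positions. Of 33 measured genes, 7 were in the top 5% on all 4 arrays: Nampt, Adipoq, Apoe, Retn, Angptl4, Vegfa and Itih5. Nrg4, a growth factor released by brown fat, lay at 95.2 ± 0.744 (SD, n = 4), and Vegfb at 90.3. Bmp8b, which raises the response of brown fat to noradrenaline, lay at 20.8, and Fgf21 at 29.8. The cytokines Tnf at 17.9 and Il6 at 5.84 lay below the olfactory receptor level on all 4 arrays.

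Among genes of the top 5% below the ceiling, the smallest SD of position over the 4 arrays belonged to Cox6b1 (0.0200 points), followed by Fasn and Cpt1b. Cox5a, Ndufa10, Acadvl, which oxidizes very long fatty acids, and Atp5mpl, an ATP synthase subunit, were also among the 10 with the smallest SD, with Ywhae, a 14-3-3 adaptor, Bsg, a chaperone of lactate transporters, and the RNA helicase Ddx17. Their SDs ran up to 0.0330 points. By mean position, the 20 highest protein-coding genes were Cat, ND3, Pdk4, Hspa8, Cdo1, Gapdh, Scd1, Ucp1, Car3, Txnip, Pck1, Cs, Ndufb9, Mt2, Fabp4, Acaa2, Cd36, Cidea, Acadl and B2m. Cdo1, which oxidizes cysteine on the way to taurine, the chaperone Hspa8 and Txnip, a glucose-induced inhibitor of thioredoxin, belonged to no list used here, nor did Mt2, a metallothionein, and B2m, the light chain of class I antigens.

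The top 5% held more than protein-coding genes. Of the 1361 genes there on all 4 arrays, 594 were protein coding in the RefSeq annotation (3.09% of 19241), 510 were pseudogenes (11.5% of 4429), 112 were small nuclear RNA genes (12.3% of 914) and 56 were ribosomal RNA genes (of 62). Only 9 of 3343 long noncoding RNA genes were among them. Probe sets of pseudogenes can bind the transcript of their parent gene, and this was not tested. Just inside the bound lay Nploc4, Tmem147 and Creg1 at 95.2 to 95.3, and the genes that missed it on 1 array despite a high mean were led by Slc7a8, Rgs2 and Otop1.

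Markers of other cells of the depot were present at lower positions than the lists of general adipocyte and brown identity genes. In such whole tissue, fewer cells of a type and less RNA per cell cannot be told apart. Endothelial genes had a median of 84.5 over 24 of 25 genes. All 24 exceeded the olfactory receptor level on all 4 arrays, beside 47.2% of all genes. Cdh5, the junction protein of vessel walls, lay at 96.2 ± 0.309 (SD, n = 4). It alone of the 24 (4.17%) was in the top 5% on all 4 arrays, near the 4.43% of all genes. Ly6c1, Gpihbp1 and Aqp1 followed at 94.97, 94.8 and 94.3, and Vwf at 57.1 and Plvap at 52.3 were the lowest. Array 1 was the lowest of the 4 for 22 of these 24 genes, beside 8378 of all 30713 genes.

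Mural cells, which wrap the vessels, had a median of 80.2 over 15 genes, led by Rgs5 at 97.7, Acta2 at 92.1, Abcc9 at 91.3 and Des at 91.0. Des is also in the skeletal muscle list. The matrix of fibroblasts gave Sparc at 97.8, Dcn at 97.5, Gsn at 97.2 and Postn at 94.5, with Col5a1 at 45.7 and Thy1 at 41.8 the lowest of 20. All 20 fibroblast genes were higher on both of arrays 3 and 4 than on both of arrays 1 and 2, beside 10018 of all 30713 genes.

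Macrophage genes lay lower than endothelial ones on each array, by 21.2 to 23.9 points, with a median of 61.6 over 24 genes and none in the top 5%. Lyz2, lysozyme, was the highest at 90.5, then Mrc1 and Cd163, receptors of resident macrophages, at 80.0 and 78.3, and C1qb at 77.6. Cx3cr1 at 41.2 and Trem2 at 25.02 were the lowest. Lymphocyte genes had a median of 37.4, and 2 of 19 exceeded the olfactory receptor level on all 4 arrays, beside 47.2% of all genes. Ighm was the highest at 57.7, and Ms4a1, the B cell marker CD20, lay at 17.7.

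Nerve and Schwann cell genes had 4 of 22 above the olfactory receptor level on all 4 arrays, beside 47.2% of all genes. These were Pmp22 at 90.1, S100b at 81.4, Cdh19 at 76.1 and Mbp at 63.5. S100b is also in the brown adipocyte identity list and among the secreted factors. Th, the enzyme of noradrenaline synthesis in sympathetic axons, whose cell bodies lie outside the depot, was at 23.8. Among blood cell genes, Alas2, the heme enzyme of red cell precursors, lay at 79.4, Bpgm at 69.9 and the platelet genes Ppbp and Pf4 at 64.2 and 63.9. Ngp and Mpo, of neutrophils, were the lowest at 13.1 and 14.01. A list of genes restricted to other tissues, from brain, retina, pancreas, kidney, lung, testis, skin, heart, pituitary and gut, had the lowest median of the lists, 26.996. Of its 35 genes, 3 were above the olfactory receptor level on all 4 arrays, beside 47.2% of all genes.

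The positions agreed closely between arrays, and more so within the pairs 1 and 2, and 3 and 4. Across genes, which are not independent replicates, Spearman's rho was 0.967 between arrays 1 and 2 and 0.978 between 3 and 4, and 0.935 to 0.945 between arrays of different pairs. The median difference in position was 2.201 and 1.77 points within the pairs and 3.66 to 3.81 between them. Arrays 1 and 2 shared 120 values exactly, 102 of them among genes of the top 5%, arrays 3 and 4 shared 6 and arrays 2 and 4 shared 1; why was not tested. The range over the 4 arrays was over 10 points for 11934 genes (38.9%), with a median of 7.12 points over all genes. Of 2016 protein-coding genes in the top 10% on at least 1 array, 23 had a range over 10 points.

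The widest ranges among those high genes belonged to liver transcripts. Alb, serum albumin, read 14.51, 10.03, 5.11 and 4.79 on arrays 1 to 4, at positions of 97.8, 91.8, 52.3 and 47.7. Mup3 and Mup20, urinary proteins made in the liver, spanned 70.9 and 68.3 points, and Apoa2 and Ahsg, plasma proteins of the liver, 54.8 and 43.9. Arrays 1 and 2 were high and arrays 3 and 4 low for each of these 5 genes, and array 1 was the highest for all 5.

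The whole liver list behaved in the same way. Its median over 34 of 40 genes was 80.2, 67.7, 33.5 and 33.3 on arrays 1 to 4. Both of arrays 1 and 2 lay above both of arrays 3 and 4 for 33 of the 34 genes (97.1%), beside 30.6% of all genes. The exception was Hp. Array 1 lay above array 2 for 32 of the 34, beside 15441 of all 30713 genes. Cyp2e1 at 98.96, Hp at 98.2, Trf at 96.4 and Rbp4 at 95.1, which fat also expresses, were high on all 4 arrays. Fga, Fgg, F2 and Apob, which code for fibrinogen chains, prothrombin and apolipoprotein B, were between 5.07 and 14.9 on arrays 3 and 4 and between 61.3 and 83.7 on arrays 1 and 2. On the same arrays the median of the brown adipocyte identity list was 95.7 and 94.9, and 96.4 and 96.1. The part of this signal in the values of other genes was not tested.

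Skeletal muscle genes moved with array 3. Their median over 38 genes was 76.6, 74.8, 80.2 and 76.0 on arrays 1 to 4. Array 3 was the highest for 35 of the 38 (92.1%), beside 24.1% of all genes. Array 2 was the lowest for 25, beside 7881 of all 30713 genes. Myh4, the fast myosin heavy chain, read 12.82, 11.85, 15.10 and 13.21, and Acta1, skeletal actin, 11.01, 10.99, 14.38 and 12.78. Myl1, at 95.4, and Atp2a1, the calcium pump of fast muscle, at 94.8, completed the 4 highest, while the muscle regulator Myod1 was at 18.5. Hspb7, a small heat shock protein of muscle and heart, lay at 60.9, 46.2, 90.03 and 77.7 on arrays 1 to 4, and Myot, myotilin, at 82.8, 74.7, 91.6 and 84.4. The same array had the highest median of the futile cycle list, which shares Atp2a1 and Ryr1 with the muscle list, at 75.6 against 66.3 to 68.1 on the others. The part of muscle in that value was not tested.

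Genes that respond within minutes to handling or signals varied between arrays 3 and 4. Of 36 immediate early genes, 30 (83.3%) were higher on array 4 than on array 3, beside 50.9% of all genes. Array 3 was the lowest of the 4 for 22, beside 7485 of all 30713 genes. The list was drawn up after the values were seen, so these counts are a description and not independent support. Nr4a1 read 12.71, 10.01, 8.23 and 12.79, and Dusp1, a phosphatase of MAP kinases, had positions of 90.7, 82.4, 79.99 and 91.96. Dusp6, another such phosphatase, had positions of 90.6, 87.7, 61.9 and 76.3. Fos read 4.20, 3.70, 4.69 and 6.00, above the olfactory receptor level on arrays 1 and 4 only. Dio2, which activates thyroid hormone in brown fat and is induced by cold, had positions of 95.5, 94.02, 89.2 and 93.9, so it too was lowest on array 3, as was Irf4. Most genes of their lists were not. Array 3 was the lowest for 3 and the highest for 9 of 24 genes in the pathway from cold to lipolysis. For the 27 brown adipocyte identity genes these counts were 5 and 12, beside 7485 and 7400 of all 30713 genes. Asl, an enzyme of the urea cycle and of arginine synthesis that is in none of the lists, was lower on array 3 (73.8) than on arrays 1, 2 and 4 (89.5, 91.6 and 82.05).

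Clock genes had a median position of 71.4, 72.7, 79.7 and 80.7 on arrays 1 to 4 (22 of 23 genes). Both of arrays 3 and 4 lay above both of arrays 1 and 2 for 12 of the 22 and below both for 6, beside 10018 and 9406 of all 30713 genes. Dbp, an output factor of the clock, read 5.20, 5.20, 10.04 and 9.79. Bhlhe40, a repressor of the clock, had positions of 68.0, 69.3, 87.1 and 91.9. Arntl, the activator of the core loop, ran the other way, with positions of 79.0, 82.0, 65.4 and 67.6. Clock, its partner, ran the same way as Arntl by a far smaller step, with 96.9, 97.03, 96.5 and 96.8. The time of day of dissection is not stated in the labels used here, and it cannot be told apart from the other differences between the pairs.

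**Figure D5:**
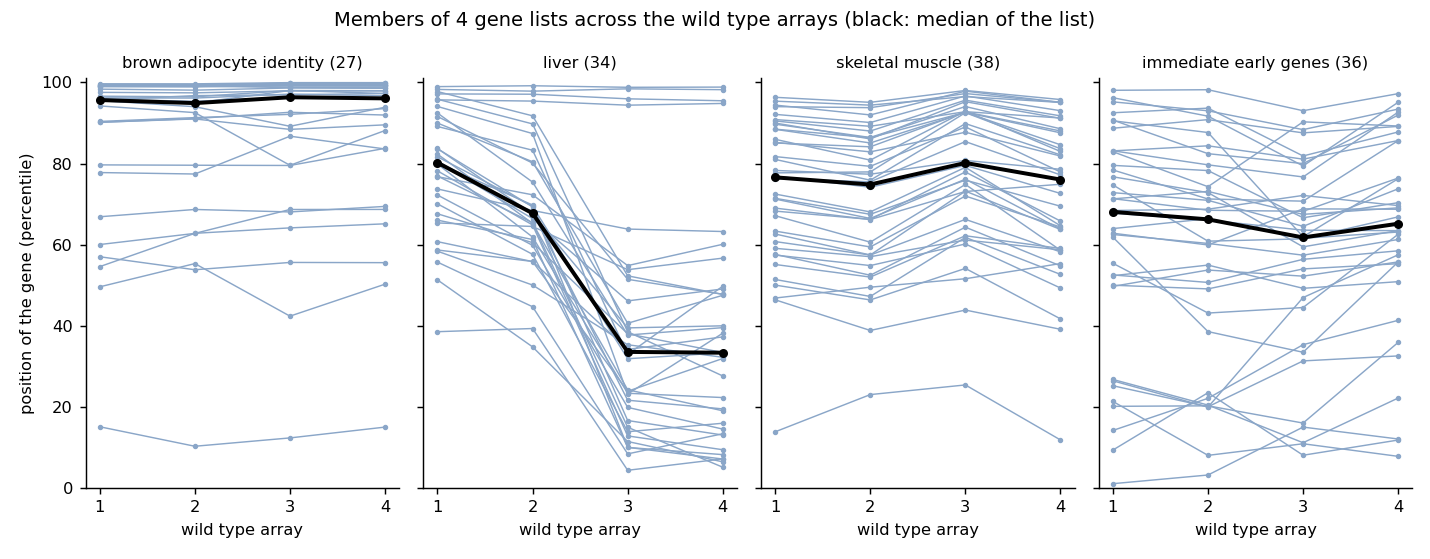
Position (percentile of all genes) of each measured member of 4 gene lists on wild type arrays 1 to 4, with the number of members in brackets and the list median in black. The brown adipocyte identity median stays between 94.9 and 96.4, the liver median falls from 80.2 to 33.3, the muscle median peaks on array 3 at 80.2, and most immediate early genes are higher on array 4 than on array 3.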

How the data were processed

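Expression was measured on Affymetrix arrays, 1 per wild type sample (n = 4), and arrays give no read depth: their number limits the precision. The deposited values are on a log2 scale and came from core-exon RMA run in Expression Console, per the labels. No software version or genome build is stated in the labels. The design text speaks of Clariom S, yet 72688 probe sets are listed, so the array type is not settled. RMA brings arrays of a run to a common distribution, and arrays 1 and 2 differ in scale from 3 and 4. Counts and ranges between arrays therefore used positions. Log2 values are given as deposited, for some genes without a position, and do not compare directly between the pairs.

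From 65956 probe sets that are not controls, the 31269 with 1 annotated gene were kept (1481 had several, 33206 no name here). The probe set with the highest mean stood for a gene (441 genes had more than 1), which left 30713 genes, of which 30711 matched RefSeq (GRCm38.p6), used for names and gene types only. Each array was ranked with average ranks, and position is 100 × (rank − 0.5) / number of genes (Python 3.11.15, pandas 2.3.3, SciPy 1.17.1), which was checked on simulated data. With 1 group, no groups were tested against each other, and no contrast with the samples lacking Hilpda was made; Dixon's criterion for 1 array apart from the others was applied to named genes and list medians.

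Members and gene lists were chosen with earlier results of these data known. Named were the 5 markers, the 20 highest protein-coding genes other than predicted and small RNA genes, the 4 highest and 2 lowest members of each list, all brown fat transcription factors, the 10 genes with the widest range among the top 10% of an array, the 10 with the smallest SD of position in the top 5%, and Hilpda. Other list members named, the immediate early list and the sex-linked genes were chosen after their values were seen. Alternatives were leaving out each array, each pair alone, the median of probe sets, 4 other sets of genes ranked or averages, and other bounds.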

Additional observations from a re-analysis of the deposited data

Results flagged for a closer look

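On 4 arrays, a value can stand apart from the 3 others by more than Dixon's 95% critical value, and chance gives this in about 1 in 20 groups of 4 exchangeable values, a rate that does not allow for the pairing of arrays 1 with 2 and 3 with 4 described above. It happened for 7 of the 264 named genes and for 1 list median, in none of them with a range over 5 points of position.

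Array 4 gave the highest position for Apoe, an apolipoprotein of lipid transport (97.735, with 97.302 to 97.342 on the others), for Esrrg (83.748 against 79.525 to 79.671) and for Fdft1, the squalene synthase (88.599 against 85.796 to 86.125). Array 2 gave the highest position for Nampt, an enzyme of NAD synthesis (98.777 against 98.331 to 98.39). On that array Mrpl42, a mitochondrial ribosomal protein, was lowest (98.061 against 98.341 to 98.387), as was Pccb, a subunit of propionyl-CoA carboxylase (98.237 against 98.419 to 98.455). The median of the tricarboxylic acid cycle genes was also lowest on array 2 (98.12 against 98.399 to 98.408). Array 1 gave the highest position for Atp2a2 (97.081 against 96.853 to 96.879).

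Outside the genes described, 688 of the 33206 probe sets without a gene name here read above the level of the top 5% of genes on all 4 arrays.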

How the results depend on the processing

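Leaving out each array in turn gave 1379 to 1389 genes in the top 5% on all arrays kept, 14670 to 14951 above the olfactory receptor level, 15 to 16 lists with a median over 90 and 9133 to 10063 genes with a range over 10 points. With arrays left out, the counts in the top 5% and above the olfactory receptor level cannot fall. The count of wide ranges cannot rise. The count in the top 5% is a share of the genes ranked, 30713 in the main ranking, so it falls with their number. It was 786 among the 18360 genes above the olfactory receptor level on at least 1 array. Without predicted genes, pseudogenes, small RNA and receptor genes it was 743 among 17548. Protein-coding genes alone, an alternative added after the data were seen, gave 832 among 19241. With only genes above the olfactory receptor level, 13 lists had a median over 90 and 3 of the 15 were lost; arrays 1 and 2 alone gave 14, and the other settings 15 or 16. Ranking only genes above that level moved 33 of 37 list medians, most for lymphocytes, which fell by 26.96 points, and fewer genes were ranked. Other bounds gave 264 genes for the top 1% and 2716 for the top 10%. A range over 5 points held for 18736 genes and over 20 points for 4578, and within arrays 1 and 2 alone 4169 genes differed by over 10 points, within arrays 3 and 4 alone 2862. The planned count of sequence features along the rank order was not run. Signals at the ceiling and near the olfactory receptor level limit the order at both ends.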
